A study of Mus musculus with 6 samples.

Results

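Potassium channel genes were described in the uninjured sciatic nerve of the mouse. They were taken as every gene whose symbol begins with Kcn and that has at least 1 transcript annotated as protein-coding, which gave 94 genes of 54309 in the files, with 409 transcripts in 21 subfamilies. Of 99 symbols that begin with Kcn, 5 belong to genes with no protein-coding transcript and were left out. Of the 94 genes, 47 had enough reads to be tested between the sexes (a CPM, counts scaled to the same library total, of 0.5 or more in 3 or more pools). The same filter kept 14271 of 21669 protein-coding genes, or 65.9%, against 50.0% of the channel genes.

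Left sciatic nerves were taken 24 h after a sham operation from female and male mice of the C57BL/6 strain (C57BL6/J in the surgical protocol), aged 6 to 8 weeks. In the sham operation the nerve was exposed at mid-thigh under isoflurane and was not cut, and the labels name no transgene, deletion or drug. Each sex gave 3 samples, and each sample was a pool of nerves from 2 mice, so that the spread between samples is that between pools and not between single animals. Poly-A RNA was sequenced as strand-specific paired reads, and the transected nerves of the study were not analysed here. The pools held 55949876 to 78473057 estimated read pairs, and levels are in TPM, a share of transcripts after division by their length, scaled to the same total in each pool. Female replicate 2 stood apart from the rest. A list of 15 skeletal muscle genes added up to 3832 TPM there and to between 41.2 and 268 TPM in the others. Myh4, Ckm and Acta1 were at 296, 395 and 740 TPM in that pool. Myh1 and Myh2 of that list were highest in male replicate 1, at 4.88 and 5.69 TPM. Their levels in female replicate 2 were 4.76 and 0.00366 TPM. The main values that rest on female replicate 2 are also given without it.

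Potassium channels let potassium ions leave or enter the cell down their electrochemical gradient, and so set the resting potential and end the action potential. Voltage-gated channels open on depolarization, inward rectifiers and tandem-pore channels carry the resting and leak currents, and a further group opens on intracellular calcium or sodium. Auxiliary subunits form no pore and change the gating, conductance or traffic of the pore subunits. In myelinated peripheral axons, Kv1 channels lie beneath the myelin beside the node of Ranvier, and channels of Schwann cells, vessels and immune cells add to the RNA of a whole nerve.

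What the pore-forming proteins share is a short selectivity filter that strips water from the ion and passes potassium over sodium. Its 5 codons were searched in the coding sequence of every gene as threonine or serine, then valine, isoleucine, threonine or leucine, then glycine, then tyrosine, phenylalanine or leucine, then glycine. Leucine at the second codon was added after the Kcnc and Kcnd genes had given no match without it. All 17 auxiliary genes had no match, all 14 tandem-pore genes had more than 1, and the other 63 genes had exactly 1 (8 calcium- or sodium-activated, 15 inward rectifiers, 30 voltage-gated pore genes and 10 voltage-gated modifiers). Roles were given by subfamily, so Kcnu1 counts among the 8 without regard to its own gating. Of 21197 other protein-coding genes, 251 held a match (1.18%). For each channel gene the coding transcript with the most matches was read. For each other gene it was the coding transcript with the highest mean TPM, so this share is not like for like. A match is a description of the letters and not a proof of a filter.

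The filters of leading genes of the pore-forming groups are shown to let the groups be compared. Each line gives 30 coding bases, 5′ to 3′ on the strand of the gene, with the 15 bases of the filter in capitals and the coordinates in GRCm39 with GENCODE M39 gene models.

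Kcna2, chr3:107012531-107012560, + strand: tccatgacaACTGTAGGCTATGGAgacatg

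Kcna1, chr6:126619185-126619214, - strand: tccatgaccACTGTGGGATACGGTgacatg

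Kcna6, chr6:126715604-126715633, - strand: acaatgaccACGGTAGGTTATGGGgacatg

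Kcnh2, chr5:24530547-24530576, - strand: agcctcaccAGCGTGGGCTTTGGCaatgtc

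Kcnj13, chr1:87316737-87316766, - strand: acacaacttACAATTGGTTATGGTaccatg

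Kcnj2, chr11:110963024-110963053, + strand: acccagacaACCATTGGCTATGGTttcagg

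Kcnk1 first filter, chr8:126722538-126722553 and chr8:126751751-126751764, + strand: gtgctctccACCACAGGCTATGGCcacacg

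Kcnk1 second filter, chr8:126752059-126752088, + strand: tccctgagcACCATCGGCCTGGGGgactat

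Kcnk6 first filter, chr7:28931587-28931602 and chr7:28925279-28925292, - strand: cttgtcaccACCGTGGGCTATGGCtacacg

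Kcnk6 second filter, chr7:28924955-28924984, - strand: tctctgtccACCATTGGCCTAGGGgactac

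Kcnt1, chr2:25784370-25784399, + strand: actttctcaACTGTGGGCTTCGGTgatgtg

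All windows are exonic and coding. Kcna1 and Kcna2 differed at 4 of the 15 filter bases, and pairs among the 8 Kcna genes differed at 1 to 5. Kcnk1 and Kcnk6 differed at 3 bases in the first filter and at 2 in the second, while the first and second filter of either gene differed at 6. Over the 89 filters compared, 77 different base sequences occurred. The filters of 2 genes on chromosome 18 were matched but left out of this comparison. In all 14 tandem-pore genes an intron fell within the first filter, after its base 7, and in 0 of 14 within the second. Among the other 61 filters, 3 were split by an intron.

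The RNA of these channels in the nerve came from few genes. The 94 genes summed to 369, 408 and 404 TPM in female replicates 1, 2 and 3 and to 369, 356 and 360 TPM in male replicates 1, 2 and 3. The female mean was 393.6 ± 21.5 TPM and the male mean 361.8 ± 6.58 TPM (SD, n = 3 pools each), and the ranges overlapped. Without female replicate 2 the female mean was 386.5 TPM. The 3 highest genes held 41.2% ± 2.25 of that sum in females and 37.8% ± 1.22 in males, and the 15 highest held 85.2% ± 0.198 and 85.2% ± 1.05 (SD, n = 3). In bulk tissue, fewer cells of a type and less RNA per cell cannot be told apart.

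Most channel genes stood low among the genes of the nerve. A mean of at least 10 TPM was found for 9 genes, a mean from 1 to 10 TPM for 24, from 0.1 to 1 TPM for 24 and below 0.1 TPM for 32, and 5 had no reads. The median over the 94 genes was 0.322 TPM, against 5.68 TPM over all protein-coding genes. The 47 genes that passed the filter had a median percentile of 16.8 among the 16310 genes tested, with 3 of them higher than 39.6 TPM (the 75th percentile), 8 higher than the median of 15.1 TPM and 28 lower than 3.83 TPM (the 25th percentile). Their spread within a sex was also wider, with a median coefficient of variation of 15.5% against 9.25% over all genes tested. These sets were not matched for level, and whether the low level of the channel genes bears on their spread was not tested.

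By role, the 30 voltage-gated pore genes held 36.8% of the summed TPM (33.7% to 40.3% over the pools), the 14 tandem-pore genes 26.9% (25.3% to 29.7%), the 17 auxiliary genes 18.4% (16.6% to 20.1%) and the 15 inward rectifiers 11.3% (10.4% to 12.0%). Without female replicate 2 the upper end of the voltage-gated pore share was 38.8% and the lower end of the auxiliary share 17.7%. The 8 genes grouped as calcium- or sodium-activated, Kcnu1 among them, held 5.20% and the 10 voltage-gated modifiers 1.34%. By subfamily, Kcna held 31.0% and Kcnk 26.9%. Kcnj held 11.3%, Kcnmb 8.30% and Kcnab 6.09%, and each other subfamily held under 4%.

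**Figure D1:**
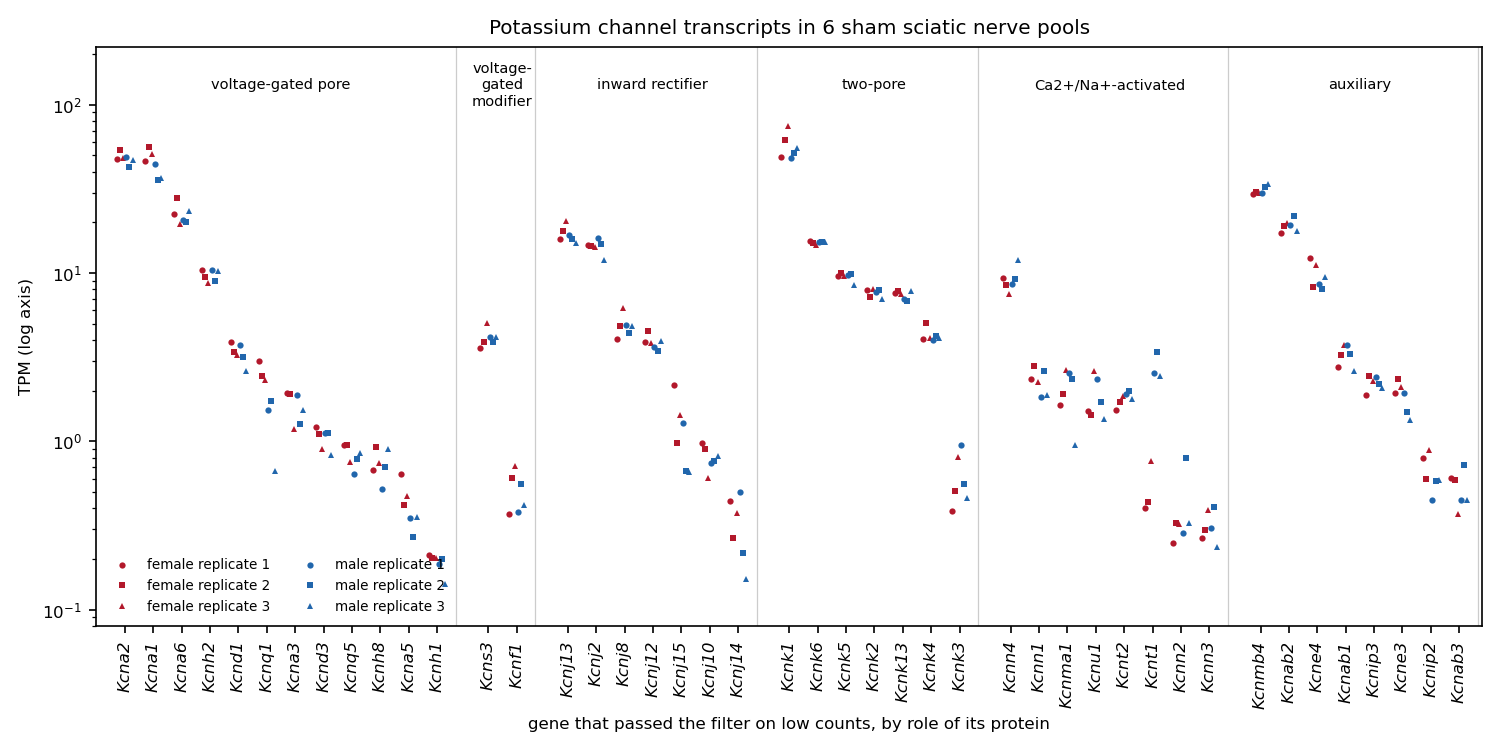
TPM (log axis) of 44 of the 47 potassium channel genes that passed the filter, in each of 3 female (red) and 3 male (blue) sham nerve pools, grouped by the role of the protein. Kcna2, Kcna1 and Kcnk1 lie between 35.5 and 74.9 TPM in every pool, and Kcnt1 is the gene whose female and male points stand farthest apart.

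Pool values below are given for female replicates 1, 2 and 3 and then for male replicates 1, 2 and 3. Kcna2 and Kcna1 encode Kv1.2 and Kv1.1, the delayed rectifiers of the juxtaparanode of myelinated axons. Kcna2 was at 47.4, 53.8 and 47.9 TPM in the female pools and 48.8, 42.4 and 47.1 TPM in the male ones. Kcna1 was at 46.4, 55.8 and 50.6 TPM in the female pools and 44.6, 35.5 and 36.6 TPM in the male ones, so its lowest female pool lay above its highest male pool. The ranges of the Kcna2 and Kcna1 levels overlapped, and Kcna2 was higher in 4 of 6 pools.

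Kcna6 encodes Kv1.6, another delayed rectifier. Its levels were 22.5, 27.7 and 19.6 TPM in the female pools and 20.7, 20.1 and 23.4 TPM in the male ones, with no separation of the sexes. Kcna3, the Kv1.3 gene of lymphocytes and macrophages, ranged from 1.18 to 1.94 TPM. Kcna5, the Kv1.5 gene, was at 0.637, 0.420 and 0.473 TPM in the female pools and 0.352, 0.269 and 0.357 TPM in the male ones. Every female pool of Kcna5 was above every male pool, at 283 reads in all.

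The Kcna genes that lie side by side differed widely in level. On chromosome 6 the minus strand holds Kcna5 (chr6:126509514-126512375), Kcna1 (chr6:126617360-126623347) and Kcna6 (chr6:126685292-126717644), with mean levels of 0.418, 44.9 and 22.3 TPM. On chromosome 3 Kcna3, Kcna2 and Kcna10 follow each other on the plus strand, with means of 1.62 and 47.9 TPM for the first pair and 3 reads in all for Kcna10. Kcnj16 and Kcnj2 are neighbours on chromosome 11, where Kcnj2 ranged from 11.9 to 16.1 TPM and Kcnj16 from 0.0332 to 0.0711 TPM.

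Among the other voltage-gated pore genes, Kcnh2 was the highest. It encodes the ERG channel known for repolarizing heart muscle, and was at 10.4, 9.41 and 8.77 TPM in the female pools and 10.4, 8.98 and 10.2 TPM in the male ones. Kcnh8, an ELK channel gene, was at 0.674, 0.924 and 0.743 TPM in the female pools and 0.519, 0.706 and 0.895 TPM in the male ones. Kcnh1, an EAG channel gene, was at 0.211, 0.204 and 0.202 TPM in the female pools and 0.186, 0.201 and 0.143 TPM in the male ones. Kcnh2 and Kcnh8 overlapped between the sexes, while the female pools of Kcnh1 all lay narrowly above the male pools in TPM and overlapped with them in normalized counts, which do not divide by length.

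Kcnd1 and Kcnd3 encode Kv4 channels, which carry fast inactivating current. Kcnd1, on the X chromosome, was at 3.92, 3.41 and 3.24 TPM in the female pools and 3.73, 3.18 and 2.61 TPM in the male ones. Kcnd3 was at 1.22, 1.10 and 0.897 TPM in the female pools and 1.11, 1.11 and 0.830 TPM in the male ones. Both overlapped between the sexes, and Kcnd2 had 5 reads in all.

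The Kcnq genes encode Kv7 channels, which carry slow currents that steady the resting potential. Kcnq3 did not pass the filter, at 148 reads over the 6 pools. Kcnq5 was at 0.950, 0.953 and 0.759 TPM in the female pools and 0.639, 0.790 and 0.853 TPM in the male ones.

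Kcnq1, the Kv7.1 gene, was at 2.98, 2.44 and 2.31 TPM in the female pools and 1.53, 1.73 and 0.663 TPM in the male ones. These levels did not overlap, but 69.3% of them came from a transcript of 282 bases with 30 reads in all. In normalized counts Kcnq1 overlapped between the sexes.

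The modifiers form no channel alone and alter other voltage-gated subunits when they join them. Kcns3 was at 3.59, 3.89 and 5.07 TPM in the female pools and 4.19, 3.89 and 4.19 TPM in the male ones, and held 81.7% of the TPM of the 10 modifier genes. Kcnf1 was at 0.370, 0.608 and 0.710 TPM in the female pools and 0.381, 0.561 and 0.417 TPM in the male ones. The other 8 modifiers, among them all 4 Kcng genes and both Kcnv genes, did not pass the filter.

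The tandem-pore genes included the highest channel gene of the nerve. Kcnk1, which encodes TWIK-1, was at 48.6, 61.6 and 74.9 TPM in the female pools and 48.5, 51.7 and 55.0 TPM in the male ones. It was above Kcna2 in 5 of 6 pools, with overlapping ranges, and its female pools spread more widely (SD 13.1 TPM) than its male pools (SD 3.24 TPM). Its position is chr8:126721842-126757440 on the plus strand.

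Kcnk6, the TWIK-2 gene, had the tightest levels of the 47 genes, with a coefficient of variation of 1.92% within a sex. It was at 15.5, 15.1 and 14.7 TPM in the female pools and 15.3, 15.4 and 15.3 TPM in the male ones. Kcnk5, which encodes the alkaline-sensitive TASK-2, was at 9.63, 9.97 and 9.58 TPM in the female pools and 9.73, 9.87 and 8.46 TPM in the male ones. Neither gene showed a gap between the sexes in TPM.

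Mechanically and lipid gated K2P channels carry current at the node of Ranvier. Kcnk2, the TREK-1 gene, was at 7.87, 7.23 and 8.00 TPM in the female pools and 7.74, 7.89 and 7.05 TPM in the male ones. Kcnk4, the TRAAK gene, ranged from 4.03 to 5.03 TPM, of which 86.2% came from a transcript of 600 bases, and it shares exon sequence on the same strand with Catsperz, so its level is uncertain. Kcnk10, the TREK-2 gene, had 33 reads and did not pass.

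Kcnk13 encodes THIK-1, a channel known from microglia, and was at 7.55, 7.78 and 7.53 TPM in the female pools and 6.98, 6.79 and 7.81 TPM in the male ones. Kcnk3, the TASK-1 gene, ranged from 0.386 to 0.953 TPM. No reads were found for Kcnk15, Kcnk16 and Kcnk18, nor for Kcnh5 and Kcnmb3. Over the 384129759 read pairs of the 6 pools a count of 0 allows up to 0.00781 CPM (3 counts, counting error only).

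Among the inward rectifiers Kcnj13 and Kcnj2 led. Kcnj13 encodes Kir7.1, known from epithelia of the eye and choroid plexus, and was at 15.8, 17.8 and 20.3 TPM in the female pools and 16.8, 15.9 and 14.98 TPM in the male ones. Kcnj2 encodes Kir2.1, a strong rectifier of muscle, endothelium and neurons, and was at 14.7, 14.5 and 14.2 TPM in the female pools and 16.1, 14.9 and 11.9 TPM in the male ones. Both overlapped between the sexes.

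Kcnj12, the Kir2.2 gene, was at 3.87, 4.54 and 3.85 TPM in the female pools and 3.61, 3.46 and 3.94 TPM in the male ones. Kcnj8 encodes Kir6.1, the pore of the vascular ATP-sensitive channel, and was at 4.04, 4.83 and 6.17 TPM in the female pools and 4.91, 4.43 and 4.85 TPM in the male ones. Kcnj10 encodes Kir4.1, the potassium-buffering channel of glia, and was at 0.982, 0.905 and 0.605 TPM in the female pools and 0.747, 0.760 and 0.820 TPM in the male ones. Kcnj10 thus lay at the 7.76th percentile, while Kcnj8 lay at the 28.5th. Kcnj15 ranged from 0.659 to 2.16 TPM and Kcnj14 from 0.152 to 0.502 TPM.

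Of the calcium-activated genes, Kcnn4 was the highest. It encodes the intermediate-conductance channel of red cells and immune cells, and was at 9.40, 8.49 and 7.54 TPM in the female pools and 8.62, 9.27 and 12.0 TPM in the male ones. Kcnn1, a small-conductance channel gene, was at 2.34, 2.80 and 2.26 TPM in the female pools and 1.83, 2.63 and 1.88 TPM in the male ones. Kcnn2 ranged from 0.249 to 0.799 TPM and had the widest spread within a sex of the 47 genes (52.8%), and Kcnn3 ranged from 0.237 to 0.410 TPM.

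Kcnma1, the pore of the large-conductance BK channel, was at 1.65, 1.91 and 2.67 TPM in the female pools and 2.53, 2.35 and 0.954 TPM in the male ones. Its neuronal partner Kcnmb4, the beta4 subunit, was the fourth highest channel gene, at 29.5, 30.2 and 29.9 TPM in the female pools and 30.1, 32.6 and 33.8 TPM in the male ones. Kcnmb4 was above Kcnma1 in every pool. Kcnu1, a pore related to BK and known from sperm, was at 1.52, 1.43 and 2.62 TPM in the female pools and 2.34, 1.72 and 1.36 TPM in the male ones. Kcnt2, the Slick gene, was at 1.54, 1.70 and 1.87 TPM in the female pools and 1.92, 1.99 and 1.78 TPM in the male ones.

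The cytosolic beta subunits join Kv1 channels, and Kcnab2 held 83.5% of the TPM of the 3 Kcnab genes. It was at 17.3, 19.0 and 19.8 TPM in the female pools and 19.3, 21.7 and 17.9 TPM in the male ones. Kcnab1 was at 2.77, 3.27 and 3.72 TPM in the female pools and 3.76, 3.31 and 2.62 TPM in the male ones, and Kcnab3 ranged from 0.368 to 0.723 TPM. The Kcnab2 level stood below that of Kcna1 and Kcna2 and overlapped with that of Kcna6.

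Kcne and Kcnip genes encode membrane and calcium-binding partners. Kcne4 was at 12.4, 8.27 and 11.1 TPM in the female pools and 8.59, 8.04 and 9.41 TPM in the male ones. Kcne3 was at 1.93, 2.35 and 2.11 TPM in the female pools and 1.93, 1.503 and 1.33 TPM in the male ones. Kcnip3 was at 1.88, 2.44 and 2.27 TPM in the female pools and 2.40, 2.20 and 2.08 TPM in the male ones. These partners showed no separation of the sexes. Kcnip2, a partner of Kv4 channels, was at 0.791, 0.601 and 0.892 TPM in the female pools and 0.450, 0.579 and 0.591 TPM in the male ones, with a narrow gap between the sexes in TPM and none in normalized counts.

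Genes that act with the channels but carry other symbols were set beside them. Of 8 genes of the juxtaparanode complex 6 passed the filter. The adhesion molecules that hold Kv1 channels in place, Cntnap2 (Caspr2) and Cntn2, did not pass, at 0.105 to 0.273 TPM and 0.0485 to 0.119 TPM, while the scaffolds Dlg1 and Epb41l3 were at 41.6 to 48.1 TPM and 16.8 to 24.0 TPM. Of 16 auxiliary or intracellular channel genes 11 passed, including Abcc9, the partner of Kcnj8, at 4.60 to 7.47 TPM. Of 22 pump and cotransporter genes 17 passed, with Fxyd5 (397 to 607 TPM) and Atp1b3 (350 to 411 TPM) the highest. Of the 4 Hcn genes, which encode mixed cation channels opened by hyperpolarization, 3 passed and Hcn4 was the highest at 38.7 to 59.6 TPM.

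The markers of nerve cells gave the following picture. All 10 genes of myelinating Schwann cells passed the filter and summed to 34350 to 43510 TPM, with Prx and Egr2 in every pool. Of 12 sensory neuron genes 5 passed and the list summed to 17.5 to 23.9 TPM. Scn10a, which defines nociceptor cell bodies, was at 0.00278 to 0.0350 TPM, Isl1 at 0.0926 to 0.394 TPM and Trpv1 at 0.742 to 1.299 TPM. Other genes of that list were higher, with Calca at 2.37 to 4.54 TPM, Prph at 3.24 to 4.42 TPM, Snap25 at 1.90 to 4.47 TPM and Tubb3 at 5.42 to 9.73 TPM. From which cells the Kcna1 and Kcna2 RNA came was not tested.

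Many channel genes are annotated with several transcripts, and the type of transcript that carried the TPM differed between genes. Of the 47 genes 32 had at least 90% of their TPM in protein-coding transcripts and 4 had under 50%. How Salmon splits reads among transcripts that share exons is an estimate, and these shares are estimates too. For Kcnk1, Kcna2 and Kcna1 a single protein-coding transcript held 93.0%, 95.8% and 95.4% of the TPM, and for Kcnk6, Kcnk5, Kcnj13, Kcnj2 and Kcne4 it held 100.0%.

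Kcna6 was the highest gene with most of its TPM outside protein-coding transcripts. Its transcript Kcna6-201, annotated as a target of nonsense-mediated decay and 5827 bases long, held 70.7% (62.0% to 76.4% over the pools), and its protein-coding transcripts held 8.54%. Kcna6-201 contains the 30 bases around the filter printed above, and 79.2% of the TPM of Kcna6 lay in transcripts that contain them. In Kcnn3, 64.5% lay in Kcnn3-202, a retained-intron transcript of 8314 bases that does not contain its filter window. In Kcnab1, 49.7% lay in Kcnab1-204, a processed transcript with no annotated coding sequence. In Kcnma1, 43.2% lay in a processed transcript of 447 bases with 53 reads.

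Exons of 47 of the 94 genes overlap those of a gene on the opposite strand, among them Kcna2, Kcna6, Kcnj13 and Kcnk1. The libraries keep the strand, but the strand setting used in counting was not given in the sources used here. Kcna1, Kcna5, Kcnk6 and Kcnt1 overlap no such gene.

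**Figure D2:**
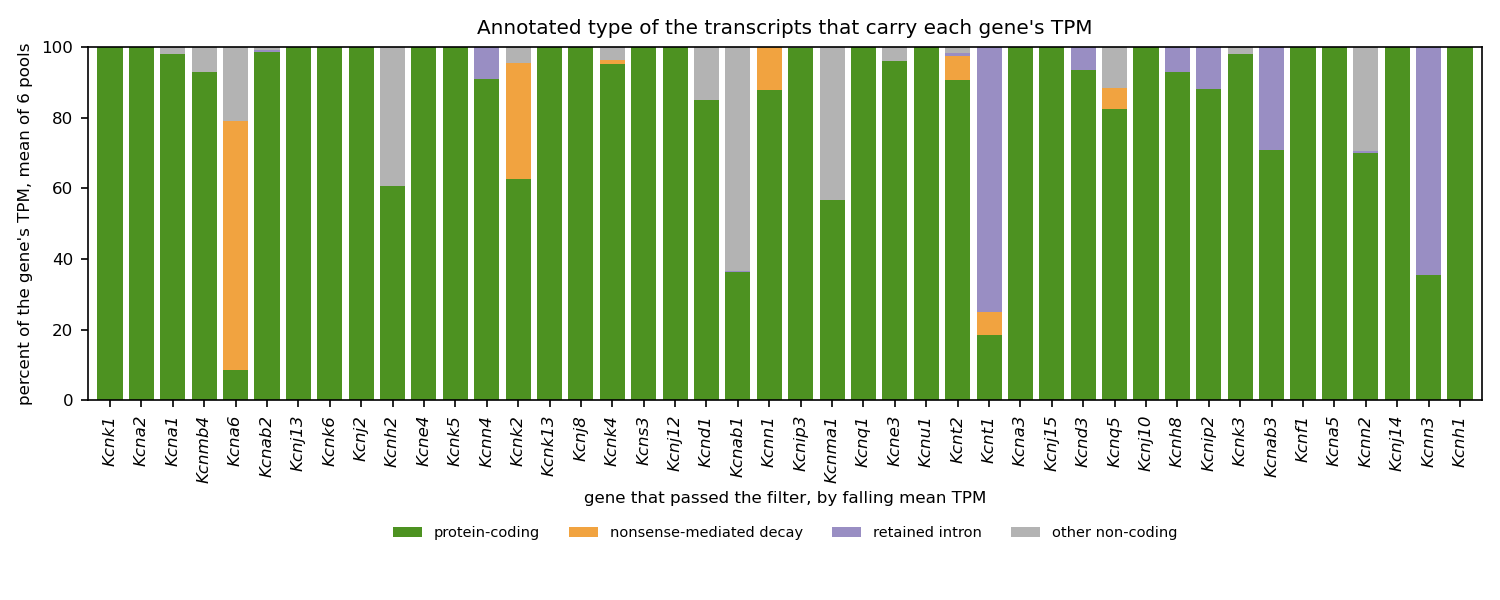
Share of each gene's TPM (percent, mean of 6 pools) by the annotated type of the transcripts, for 44 of the 47 genes that passed the filter, in order of falling mean TPM from left to right. Most bars are protein-coding (green) throughout; Kcna6 (nonsense-mediated decay), Kcnab1 (other non-coding), Kcnt1 and Kcnn3 (both retained intron) have under 50% in protein-coding transcripts.

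Some channel genes were high in the muscle-rich pool, female replicate 2. Among the 76 channel genes with at least 10 reads, 4 were at least 2 times as high in female replicate 2 as in any other pool (5.26%), against 342 of 23762 genes of the whole table with at least 10 reads (1.44%). In other pools the same was true of 0 to 3 channel genes.

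These 4 were Kcnj11, Kcnc4, Kcna7 and Kcnc1, and none passed the filter. Kcnj11 encodes Kir6.2, the pore of the ATP-sensitive channel of skeletal muscle and beta cells, and was at 0, 1.67 and 0.1095 TPM in the female pools and 0.157, 0.131 and 0.0650 TPM in the male ones. Kcnc4, which encodes Kv3.4, was at 0.0349, 1.41 and 0.0407 TPM in the female pools and 0.0609, 0.0995 and 0.0153 TPM in the male ones. Kcna7, which encodes Kv1.7, was at 0, 0.984 and 0.0124 TPM in the female pools and 0.101, 0.0261 and 0.0138 TPM in the male ones. Female replicate 2 held 194 of 239 reads of Kcnj11, 185 of 221 of Kcnc4 and 72 of 85 of Kcna7.

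Kcnc1, the Kv3.1 gene, was at 0.0287, 0.214 and 0.0383 TPM in the female pools and 0.0455, 0.0876 and 0.0304 TPM in the male ones. Its excess in female replicate 2 was 2.44 times the highest other pool, against 10.7, 14.1 and 9.71 times for Kcnj11, Kcnc4 and Kcna7. The 4 genes were chosen for being high in this pool, so their sharing it with the muscle list was fixed by the choice. Among the other pools the muscle sum was highest in male replicate 1 (268 TPM, against 105 TPM in male replicate 2), as were Kcnj11 and Kcna7, while Kcnc4 and Kcnc1 were higher in male replicate 2. The part of muscle in their levels was not tested. The filters of the 3 largest are given for comparison with those above, in the same layout.

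Kcnj11, chr7:45748914-45748943, - strand: gtccaggtgACCATTGGTTTCGGCgggcgc

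Kcnc4, chr3:107355109-107355138, - strand: accatgacaACGCTTGGCTATGGGgacatg

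Kcna7, chr7:45058876-45058905, + strand: accatgaccACGGTTGGCTATGGGgacatg

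**Figure D3:**
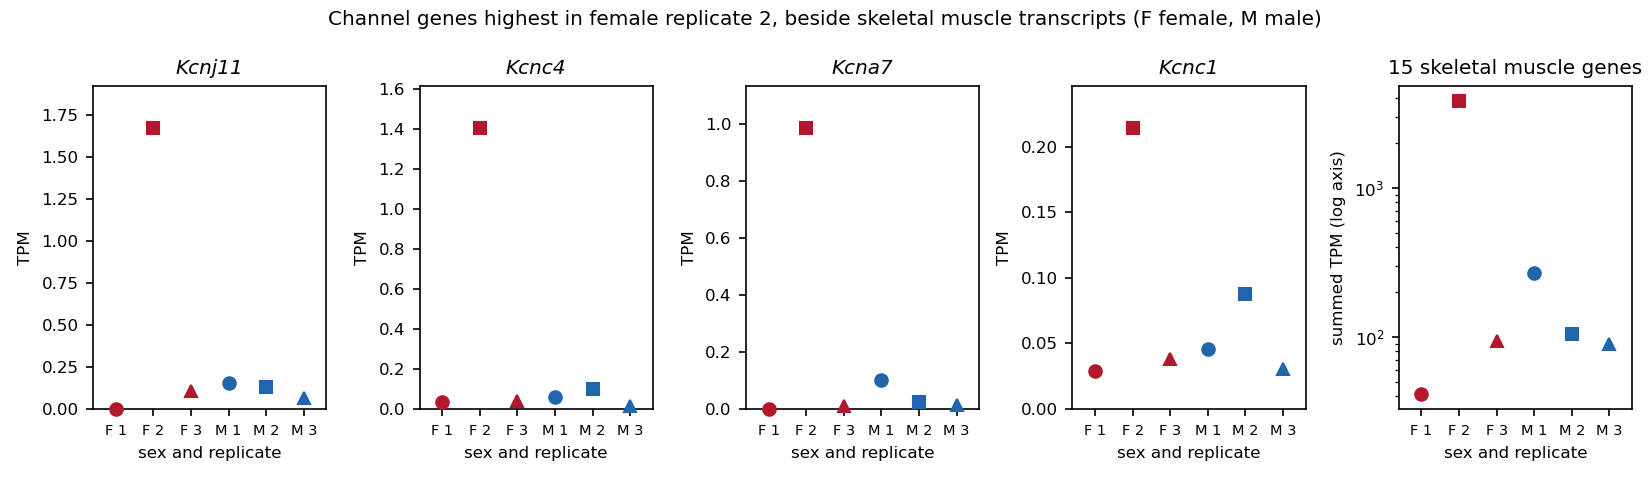
TPM of Kcnj11, Kcnc4, Kcna7 and Kcnc1 in each pool (linear axes) and the summed TPM of 15 skeletal muscle genes (log axis), for 3 female (red) and 3 male (blue) pools. Female replicate 2 is the highest point in all 5 panels, at 1.67, 1.41, 0.984 and 0.214 TPM for the channel genes and 3832 TPM for the muscle list.

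Female and male nerves were then compared, the one contrast the design holds. Of the 47 channel genes tested, 1 differed between the sexes at an adjusted p under 0.1 by edgeR's quasi-likelihood test, against 10 of 16310 genes tested (0.0613%). That gene was Kcnt1, which encodes the sodium-activated channel Slack and was higher in males, as were 6 of the 10 (0.0368% of the genes tested). The other 9 genes called were the Y-linked Kdm5d, Uty and Eif2s3y, the X-linked Kdm6a and Eif2s3x, and Gm29650, Gdf3, C7 and Igf2. Kcnt1 lies on chromosome 2, at chr2:25753746-25809578 on the plus strand, and no other annotated gene overlaps its exons on either strand.

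Kcnt1 was at 0.402, 0.438 and 0.765 TPM in the female pools and 2.56, 3.41 and 2.43 TPM in the male ones. The estimated read pairs were 46, 63 and 88 in females and 454, 412 and 288 in males. The lowest male pool was thus above 3 times the highest female pool in both measures. In normalized counts the female pools were at 0.824, 1.07 and 1.33 CPM and the male pools at 5.74, 6.25 and 4.97 CPM.

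The log2 fold change of Kcnt1, female over male, was -2.39 (SE 0.196, adjusted p = 0.00869, edgeR's quasi-likelihood test with Benjamini-Hochberg adjustment), the fourth smallest p of all genes tested. In linear terms it was 5.25-fold higher in males (95% interval 3.83 to 7.19), and higher in 3 of 3 male pools than in any female pool. It was called without each pool in turn, with adjusted p from 0.00827 to 0.0808, and by DESeq2, by limma, where it was the 1 channel gene among 26 of 16310 genes called (0.159%), and by edgeR with no filter on low counts. With the muscle-rich female replicate 2 left out the log2 fold change was -2.38 (adjusted p = 0.0452, edgeR). On protein-coding transcripts alone it was -2.66 and no longer passed the threshold (adjusted p = 0.148, edgeR). With the replicate number as a block it was -2.41 and did not pass either (adjusted p = 0.159, edgeR). An exact permutation test of 3 pools against 3 cannot give a p below 0.1.

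The TPM of Kcnt1 lay mostly in transcripts annotated as retained introns. These held 74.9% of its TPM, protein-coding transcripts 18.5% and transcripts subject to nonsense-mediated decay 6.57%. By estimated read pairs the difference was smaller. Retained-intron transcripts had 140 read pairs in females and 723 in males, against 57 and 418 for protein-coding transcripts. In TPM the leading transcript was Kcnt1-214 (47.9%), a model of 795 bases at the 3′ part of the gene with 136 read pairs. It is annotated as a retained intron but keeps 0 whole introns of the coding model Kcnt1-201. In reads the leading transcript was Kcnt1-206, a model of 6639 bases that keeps intron 4 of Kcnt1-201, with 640 of 1351 read pairs.

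The leading Kcnt1 transcripts of each type had higher levels in the male pools, with no test run on single transcripts. Kcnt1-214 averaged 0.312 ± 0.149 TPM over the female pools and 1.29 ± 0.363 TPM over the male pools, and Kcnt1-206 0.123 ± 0.0368 and 0.567 ± 0.138 TPM (SD, n = 3). Kcnt1-201, the protein-coding model of 32 exons, was at 0.0208, 0.0907 and 0.0536 TPM in the female pools and 0.450, 0.356 and 0.335 TPM in the male ones. The protein-coding transcripts together had 57 read pairs in females and 418 in males. Kcnt1-207, which keeps intron 25, and Kcnt1-205 were listed at 0 in all female pools. The filter of Kcnt1 printed above lies in exon 11 of 32 of Kcnt1-201, and 41.9% of the TPM lay in transcripts that contain it.

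**Figure D4:**
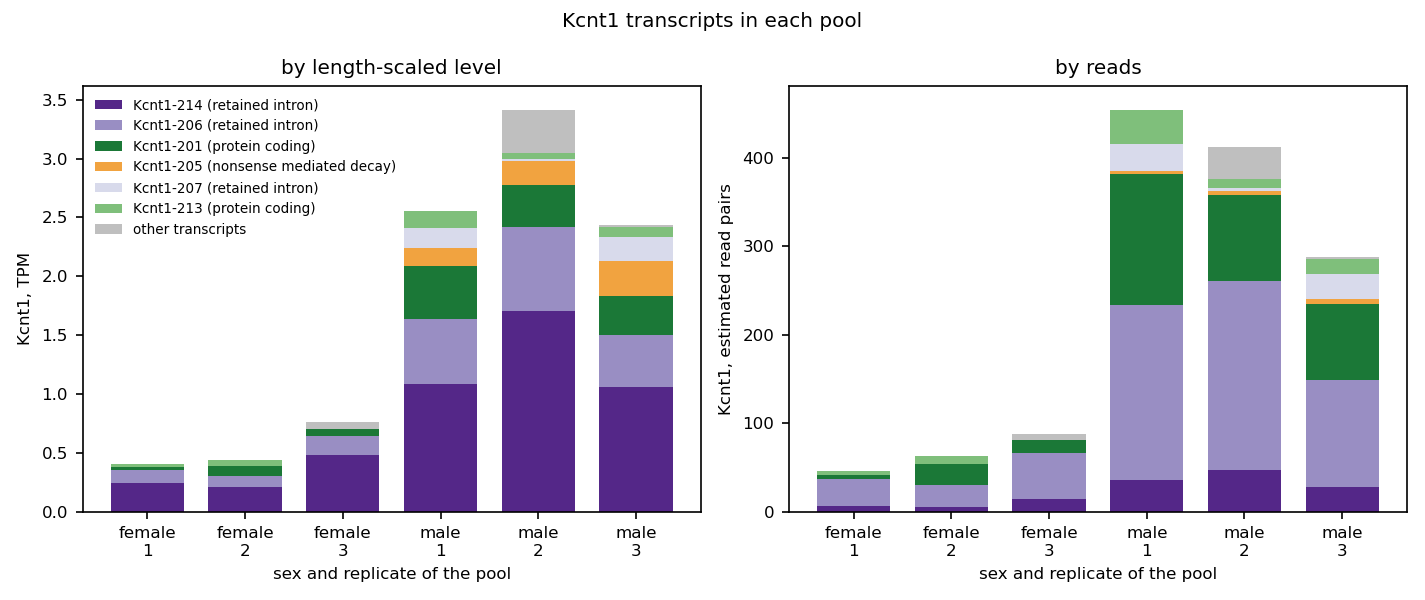
Kcnt1 in each of 3 female and 3 male pools, stacked by transcript, as TPM (left) and as estimated read pairs (right). The female bars reach 0.402 to 0.765 TPM and 46 to 88 read pairs and the male bars 2.43 to 3.41 TPM and 288 to 454 read pairs; the purple retained-intron transcripts Kcnt1-214 and Kcnt1-206 make up most of every bar in TPM.

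Kcnt2, the closest relative of Kcnt1, had a log2 fold change of -0.17 (95% interval -0.52 to 0.18, adjusted p = 0.883, edgeR). The 46 channel genes other than Kcnt1 ranged from -0.29 (Kcnn2) to 0.67 (Kcna5), with adjusted p of 0.443 to 0.991 in edgeR. The median over the 47 was 0.08, against 0.00 over all genes tested, and 34 of 47 were above 0, against 50.6% of all genes. For 43 of 47 the 95% interval lay within -1 and 1, as it did for 94.5% of all genes. The exceptions were Kcnt1 and the upper ends of Kcna5 (1.22), Kcnj14 (1.32) and Kcnma1 (1.01).

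**Figure D5:**
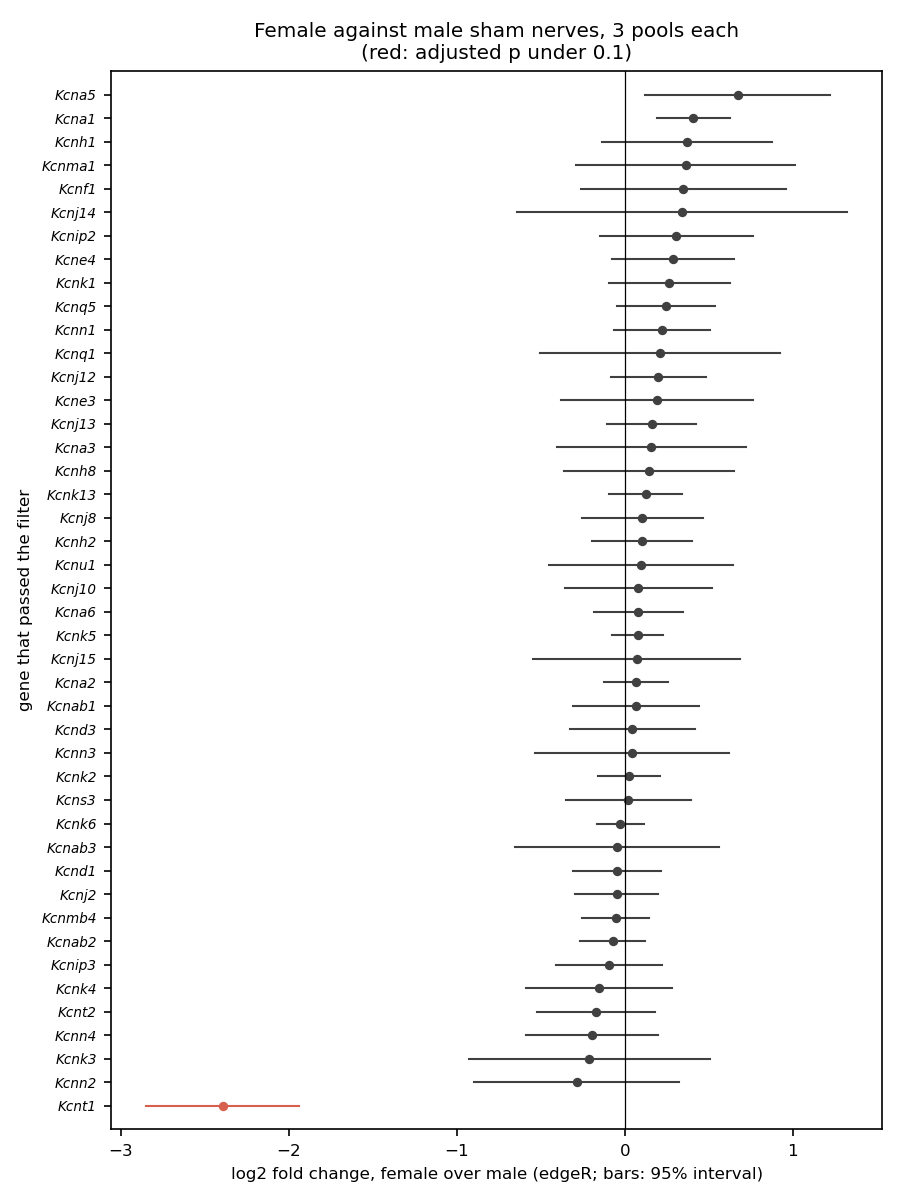
Log2 fold change, female over male, of 44 of the 47 channel genes tested (points) with 95% intervals (bars) from edgeR on 3 pools per sex, the gene called at an adjusted p under 0.1 in red. Kcnt1 at -2.39 is the one red point, and the others lie between -0.29 and 0.67.

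Kcna1 was the next gene by p. Its log2 fold change was 0.41 (SE 0.0931, 95% interval 0.19 to 0.62), with an adjusted p = 0.443 in edgeR's quasi-likelihood test, so it did not pass the threshold. DESeq2 called it (adjusted p = 0.0187), one of 2 channel genes called among 159 of 16310 genes (0.975%), and so did edgeR with no filter on low counts (adjusted p = 0.0985), which called 2 of 89 channel genes and 49 of 31616 genes (0.155%). Without female replicate 2, its highest pool, the log2 fold change was 0.36 (adjusted p = 0.954, edgeR). Its normalized counts were 106, 124 and 118 CPM in females and 98.2, 80.2 and 84.3 CPM in males, which do not overlap. Kcna2 had a log2 fold change of 0.07 (95% interval -0.12 to 0.26) and Kcna6 one of 0.08 (95% interval -0.18 to 0.34).

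Kcna5, with a log2 fold change of 0.67 (SE 0.239), had an adjusted p = 0.757 in edgeR. At an unadjusted p under 0.05 there were 3 channel genes of 47, Kcnt1, Kcna1 and Kcna5, where 6.11% of all genes reached it. The next by p were Kcnq5 (log2 fold change 0.25), Kcne4 (0.29), Kcnn1 (0.22), Kcnk1 (0.26), Kcnh1 (0.37), Kcnj12 (0.20) and Kcnip2 (0.31), all higher in females and with adjusted p of 0.838 to 0.863 in edgeR. Single pools decided the size of some of these values, none of which passed the threshold. The log2 fold change of Kcnk1 was 0.10 without female replicate 3 and 0.40 without female replicate 1, and that of Kcne4 was 0.17 without female replicate 1 and 0.44 without female replicate 2. It was 0.23 for Kcnh1 without male replicate 3, 0.13 for Kcnj12 without female replicate 2 and 0.19 for Kcnip2 without female replicate 3.

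The normalized counts of the sexes did not overlap in 7 of the 47 genes, against 11.2% of all genes tested. In 6 of them every female pool was above every male pool (5.16% of all genes), among them Kcna1, Kcna5, Kcnk5, Kcnn1 and Kcnq5. Kcnt1 was the one with every male pool above (6.04% of all genes).

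Marker lists of 2 other cell types had ranges that differed with sex. The 8 macrophage genes summed to 1365 to 1544 TPM in females and 1607 to 1796 TPM in males. The 6 adipocyte genes summed to 560 to 1089 TPM in females and 501 to 543 TPM in males, so the sums of neither list overlapped. Most of the adipocyte sum was Fabp4, at 442 to 874 TPM in females and 382 to 429 TPM in males. As single genes, Fabp4 and Lep did not overlap between the sexes in TPM, while Adipoq, Plin1, Cidec and Lipe did. By edgeR 0 of these genes were called, while DESeq2 called 1 gene of each list and limma 0 and 1. An unadjusted p under 0.05 was reached by 5 of 8 macrophage genes, 4 of them higher in males and 1 (Cd163) in females, and by 1 of 6 adipocyte genes, Lep, which was higher in females. The sums of the endothelial, mural, fibroblast, perineurial, Schwann cell and sensory neuron lists overlapped between the sexes. Single genes of them differed at an unadjusted p under 0.05 even so, 2 of 8 fibroblast genes (collagen genes, both higher in males, both called by DESeq2 and 1 by limma) and 2 of 8 mural genes (1 in each direction, 0 called by DESeq2 or limma). Whether these cells bear on the levels of Kcnt1 or Kcna1 was not tested.

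None of the genes that act with the channels was called between the sexes by edgeR in the 4 lists. For the juxtaparanode partners 0 of 6 had an unadjusted p under 0.05, and DESeq2 and limma called 0. The 11 auxiliary genes gave 0 on all of these counts. Among the 17 pump and cotransporter genes 2 had an unadjusted p under 0.05, among them Fxyd5 (log2 fold change -0.30), of which DESeq2 called 1 and limma 0. Of the 3 Hcn genes 1 did, Hcn4 (log2 fold change 0.32, adjusted p = 0.757 in edgeR), and DESeq2 and limma called 0.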

How the data were processed

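The authors trimmed the reads with Trimmomatic 0.39 and quantified transcripts with Salmon (1.5.2 in the submitters' processing notes, another version in the paper) on GENCODE mouse transcripts of GRCm39, with different releases in the paper and in the file names. Each transcript has a deposited estimated count of read pairs and a deposited TPM, neither of which was normalized between samples.

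The 140789 transcripts were joined by gene identifier, with estimated counts added and rounded and TPM added. The 6 pools held 55949876 to 78473057 read pairs. Females were compared with males in edgeR 4.0.16 (robust quasi-likelihood test without covariates, TMM factors, Benjamini-Hochberg adjustment over the 16310 genes that reached 0.5 CPM in 3 pools or more, threshold 0.1) in R 4.3.3. Alternatives were DESeq2 1.42.0, limma 3.58.1 with sample weights, RLE factors, effective length offsets, other filters and thresholds, the replicate number as a block and each pool left out. Counting protein-coding transcripts alone was added after seeing the data. The fits were tested on simulated data. Tables were made in Python 3.11.15.

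Channel genes, gene lists and the rule for naming genes were chosen with earlier results of these data known. Every channel gene could be named, and values in every pool were given for the leading genes of each subfamily, the 15 highest, the 10 with the smallest p, those highest in female replicate 2, and genes the paper names. Some genes and sequences that this rule takes in are not reported here. All 94 genes matched GENCODE M39 by identifier, which gave coordinates and coding sequences. Counts of pools of 1 sex differed by a chi-square of 22.0 to 60.6 per gene, far above sampling noise.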

Additional observations from a re-analysis of the deposited data

How the results depend on the processing

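Kcnt1 kept its direction under every alternative run and its call under all but 2. With the replicate number as a block, which the labels do not tie to a shared animal, litter or day, its log2 fold change was -2.41 and its adjusted p 0.159 (edgeR), so that 0 channel genes and 5 of all genes were called. Deviations of same-numbered pools correlated at -0.206, -0.130 and -0.086 over the 5000 most variable genes, so these pools did not vary together there. Whether same-numbered pools shared a day or batch was not tested. With protein-coding transcripts alone 0 channel genes were called. DESeq2 called 2 channel genes and 159 of all genes, edgeR with no filter 2 and 49, and limma with sample weights 1 and 26. Leaving out each pool in turn gave 3 to 8 of all genes and 1 channel gene throughout. Of the 165 alternatives for the 12 genes followed, 160 left the call and direction as they were, and Kcnab2, not called, ranged from -0.12 without female replicate 3 to 0.0016 without male replicate 2, where its sign turned.

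With at least 1 read in every pool as the filter, 71 channel genes passed in place of 47. Protein-coding transcripts alone summed to 355.8 TPM in females and 323.3 TPM in males. The median percentile of the genes that passed was 22.3 by CPM, 11.9 among protein-coding genes and 16.2 to 17.9 without each pool. The cause of these changes was not tested. Low counts limit the genes under the filter, and 3 pools of 2 mice limit the comparison.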

Other observations

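Of the 5 genes whose symbols begin with Kcn and that have no protein-coding transcript, 2 passed the filter. Kcnq1ot1, the imprinted antisense RNA of the Kcnq1 locus, was at 0.379, 0.414 and 0.382 TPM in female replicates 1, 2 and 3 and 0.420, 0.371 and 0.342 TPM in male replicates 1, 2 and 3. It had 7172 reads against 476 of Kcnq1, which are not divided by length. In TPM Kcnq1 was the higher in every pool, at 0.663 to 2.98 TPM, mostly through the short transcript described above. The log2 fold change of Kcnq1ot1, female over male, was -0.02 (adjusted p = 0.978, edgeR). Kcnmb4os2, on the strand opposite Kcnmb4, was at 2.91, 2.13 and 1.40 TPM in the female pools and 2.53, 1.93 and 2.16 TPM in the male ones. Kcnab3os, Kcnd3os and Kcnmb4os1 had 8, 4 and 2 reads.

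Channel genes with at least 2 times the level of any other pool were also found outside the muscle-rich library, at few reads. They were Kcnip4 (0.402 TPM) and Kcnk10 (0.103 TPM) in female replicate 3, Kcna4 (0.243 TPM) in male replicate 1, and Kcnn2 (0.799 TPM), Kcnip1 (0.133 TPM) and Kcnj3 (0.0457 TPM) in male replicate 2.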
